A study of Saccharomyces cerevisiae with 12 samples.

Results

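The mRNAs of amino acid biosynthesis genes under the control of the transcription factor Gcn4 were followed through depletion of the co-repressor subunit Cyc8p in budding yeast, with and without flocculation. The group held GCN4 itself and 41 genes for enzymes that make arginine, histidine, lysine, the aromatic amino acids, threonine and its precursor homoserine, serine, asparagine, proline, glutamine and glutamate. Its 42 members were chosen by gene name, with earlier results of these data known. All 42 were found among the 6775 genes of the deposited table, and all 42 passed the filter on low counts in every comparison. The lowest count of any member in any sample was 189 reads.

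Gcn4 is the activator of general amino acid control. When amino acids run short, uncharged tRNA activates the protein kinase Gcn2, initiation of translation slows throughout the cell, and the GCN4 mRNA is translated more. The Gcn4 protein then acts on enzyme genes of many amino acid pathways together. The GCN4 mRNA level is therefore a poor guide to the amount of Gcn4 protein, which was not measured here. Several pathways also have an activator or a feedback signal of their own, such as Lys14 in lysine synthesis. Cyc8p works with Tup1p as a co-repressor that DNA-binding proteins bring to promoters, and at ARG1 the Cyc8-Tup1 complex and Gcn4 have been described as dependent on each other for promoter occupancy.

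By the study's methods, all samples came from a single yeast strain of the anchor-away design, in which rapamycin carries the tagged Cyc8p out of the nucleus. It was of mating type Mata and carried the allele tor1-1, the deletion fpr1::loxP-LEU2-loxP, the anchor RPL13A2xFKBP12::loxP on a ribosomal protein, and the tagged allele CYC8-FRB::HIS3, so that the controls held all of these too. Cells were grown in YPD, a rich medium that itself supplies amino acids, at 30 °C, and RNA was taken 4 h after the additions. In the Flo- Cyc8-AA experiment, 3 cultures received 1 µg/ml rapamycin and 0.25 M mannose (+Rap+Man) and 3 received mannose with the solvent of rapamycin (-Rap+Man). In the Flo+ Cyc8-AA experiment, 3 cultures received rapamycin alone (+Rap), under which the depleted cells flocculate, and 3 received the solvent alone (-Rap). Mannose blocks the binding of flocculins and so keeps depleted cells apart. The experiments were sequenced at different times, the Flo- one with single-end and the Flo+ one with paired-end reads. Mannose, flocculation, sequencing time and read type therefore cannot be told apart wherever the experiments are set against each other. Within the Flo+ experiment only the depleted cells flocculated, so loss of Cyc8p and flocculation cannot be told apart in its changes.

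Between 26125728 and 51088194 reads were counted on genes per sample. FPR1, which the strain lacks, had at most 6.1 normalised counts in any sample, and the a-cell genes MFA1, MFA2, STE2, STE6 and BAR1 were present in all 12 samples, as the Mata label asks. The same 5 genes summed to 95659 to 112879 normalised counts in +Rap+Man, against 63265 to 71656 in -Rap+Man, and to 15651 to 18736 in +Rap, against 28061 to 43167 in -Rap. They did not move together. In the Flo- experiment MFA1, MFA2, STE2, STE6 and BAR1 had log2 changes of 1.85, 1.57, 0.31, -0.94 and -0.15. In the Flo+ experiment these were -0.35, 0.71, -0.95, -1.13 and -1.56, in the same order. Between the controls, MFA1 was 10.1-fold and MFA2 13.1-fold higher in -Rap+Man than in -Rap, and STE2, STE6 and BAR1 1.72-, 1.13- and 1.22-fold. The 3 alpha-cell genes MF(ALPHA)1, MF(ALPHA)2 and STE3 summed to 265 to 355 normalised counts in +Rap+Man, against 27.1 to 97.5 in -Rap+Man, and to 202 to 252 in +Rap, against 195 to 222 in -Rap. The part of these shifts in the results was not tested. Normalised counts are reads per gene scaled by TMM (trimmed mean of M-values) factors, which set the bulk of genes level between samples. Changes are differences of log2(normalised count + 2) with a standard error (SE), tested with limma and adjusted by Benjamini-Hochberg over all genes tested, with "fell by" giving the size on the log2 scale, and "rose" and "fell" are used at an adjusted p of at most 0.05. With scaling to total counts, the median of all genes moved by -0.59 on the log2 scale in the Flo- experiment and by -0.34 in the Flo+ experiment, so all changes below are relative to the bulk of genes. RNA of a whole culture was measured, so a lower level in every cell and a loss from some cells cannot be told apart.

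Most of the members changed on Cyc8p depletion, and the more common direction was down. In the Flo- experiment 21 of 42 members fell, with 28.4% of all 6325 genes tested falling, and 12 rose, with 25.0% of all genes rising. In the Flo+ experiment 23 of 42 fell, with 20.5% of all 6100 genes tested falling, and 4 rose, with 23.0% of all genes rising. The median log2 change of the members was -0.34 in the Flo- experiment and -0.43 in the Flo+ experiment, beside -0.07 and -0.02 over all genes tested. Groups without overlap were common. In the Flo- experiment 12 members were higher and 23 lower without overlap, beside 1801 and 2112 of all 6325 genes. In the Flo+ experiment it was 4 and 25 members, beside 1738 and 1696 of all 6100 genes. Changes were small for most members, since 35 of 42 in the Flo- experiment and 36 of 42 in the Flo+ experiment were under 1 on the log2 scale in size. At an adjusted p of at most 0.01 and a change of 1 or more on the log2 scale, the stricter thresholds, 2 members were higher and 5 lower in the Flo- experiment, beside 14.3% and 2.91% of all genes. By the same thresholds 1 member was higher and 5 were lower in the Flo+ experiment, beside 11.0% and 2.11% of all genes.

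The members that changed in both experiments mostly kept one direction. Of 24 such members, 19 fell in both, namely ARG1, ARG8, HIS1, HIS2, HIS4, HIS7, LYS4, LYS9, LYS12, TRP2, TRP3, ARO2, ARO7, SER1, SER33, ASN1, PRO1, PRO2 and GLN1. HIS5, HIS6, LYS1 and GDH1 rose in both, and HOM3 rose in the Flo- and fell in the Flo+ experiment. A further 9 members passed the test in the Flo- experiment only (GCN4, ARG3, CPA1, LYS20, TRP4, TRP5, ARO3, HOM6 and THR1), 3 in the Flo+ experiment only (HOM2, THR4 and ASN2), and 6 in neither (ARG4, LYS2, LYS21, ARO1, ARO4 and SER3). These classes hold for TMM scaling only. With total counts LYS2, LYS21, ARO1 and ARO4 were called lower in both experiments, ARG4 in the Flo+ and SER3 in the Flo- experiment. HOM2, THR4 and ASN2 were then called lower in the Flo- experiment too. CPA1, TRP4, TRP5, ARO3, HOM6 and THR1 were then called lower in the Flo+ experiment. All 21 and all 23 members that fell were also called lower with scaling to total counts. That scaling moved the median of all genes by -0.59 (Flo-) and -0.34 (Flo+) on the log2 scale. It therefore made falls larger and could not test them. Of the 12 that rose in the Flo- experiment, only LYS1 and GDH1 were then still called higher, and the sign turned for GCN4, CPA1, HIS5, TRP4, HOM3 and THR1. Of the 4 that rose in the Flo+ experiment, HIS6 and GDH1 were still called higher with total counts and none changed sign. Leaving out each sample in turn, 17 of the 21 falls and 6 of the 12 rises held in all 6 fits of the Flo- experiment, and 17 of the 23 falls and 2 of the 4 rises in all 6 fits of the Flo+ experiment. The falls lost in at least 1 fit were those of HIS7, TRP2, ARO3 and ARO7 (Flo-) and of ARG8, LYS4, TRP2, ARO7, HOM2 and PRO2 (Flo+).

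**Figure D1:**
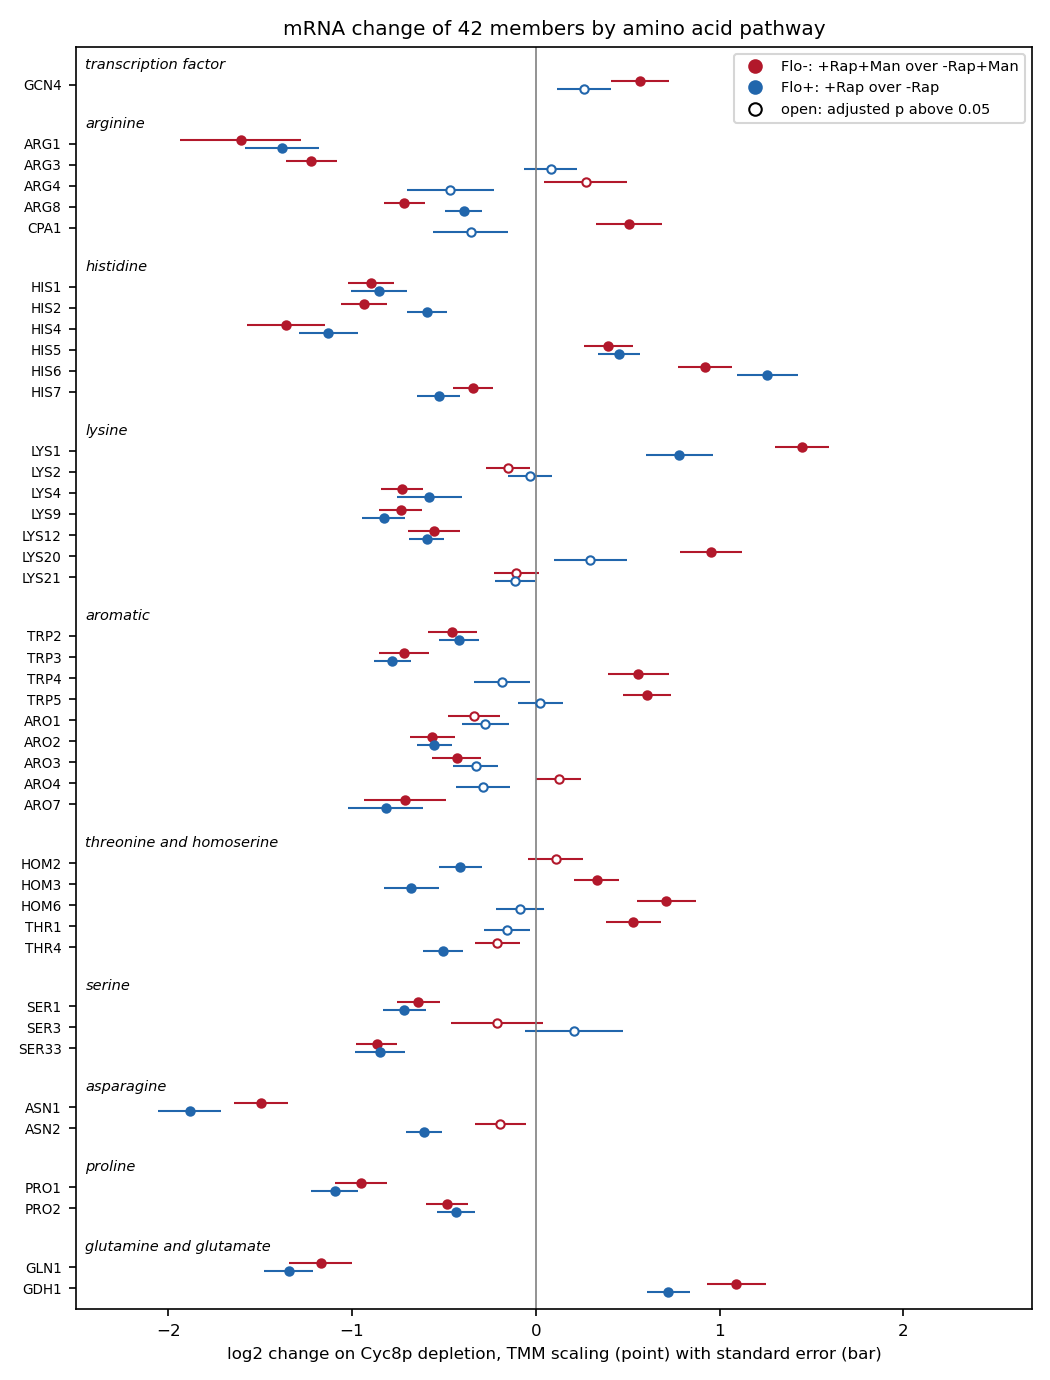
Log2 change of each of the 42 members on Cyc8p depletion, with its standard error, grouped by pathway. Red points are the Flo- experiment (+Rap+Man over -Rap+Man), blue points the Flo+ experiment (+Rap over -Rap), and open points did not pass an adjusted p of 0.05. ASN1, ARG1, HIS4 and GLN1 lie left of -1 in both. With scaling to total counts GCN4, ARG4, CPA1, HIS5, TRP4, ARO4, HOM2, HOM3 and THR1 of the red points and GCN4, ARG3, LYS20, TRP5 and SER3 of the blue ones would lie left of 0.

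The core site of Gcn4 was looked for before every member. Windows of 300 bases, from 250 before the start codon to 50 from it on, were read from the RefSeq R64 assembly for 6001 protein-coding genes and searched on both strands for TGACTCA. It was present in 164 of 6001 windows (2.73%) and in 15 of the 42 members' windows (35.7%), once in each. By pathway these were 2 of 5 arginine, 4 of 6 histidine, 2 of 7 lysine, 3 of 9 aromatic, 1 of 5 threonine and homoserine, 2 of 2 asparagine and 1 of 2 proline genes, with none among the serine, glutamine and glutamate genes. The sites below, with 10 bases on each side, are shown because they stand before members that fell strongly, rose, or did not pass the test, and the site is in capitals. HIS1 and LYS1 carry it on the other strand, so that it reads TGAGTCA on the strand of the gene. All are written 5′ to 3′ on the strand of the gene, and coordinates are those of R64.
ASN1 (fell in both), chrXVI:822383-822409, plus strand: atgtaacattTGACTCAttctgtaaac
HIS4 (fell in both), chrIII:68516-68542, minus strand: ccatgcacagTGACTCAcgttttttta
HIS1 (fell in both), chrV:265953-265979, minus strand: agcttccaagTGAGTCAcctctaccgt
LYS1 (rose in both), chrIX:420970-420996, minus strand: actaagtcgaTGAGTCAaaaaagactc
HIS5 (rose in both), chrIX:142716-142742, plus strand: ttggatctgtTGACTCActtcaattga
ARG4 (passed in neither), chrVIII:141565-141591, minus strand: agtagatgaaTGACTCActttttggat
LYS2 (passed in neither), chrII:474104-474130, minus strand: ttttcgcgtgTGACTCAatgtcgaaat
ARO1 (passed in neither), chrIV:704251-704277, plus strand: gtcatgcataTGACTCAtcccgaacat

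The last base of the site lay 221 bases before the start codon in ASN1, 193 in HIS4, 178 in HIS1, 244 in LYS1, 196 in HIS5, 173 in ARG4, 188 in LYS2 and 217 in ARO1. Over all 15 members with the letters the distance ran from 117 bases in TRP3, which fell in both experiments like PRO2 at 119 and TRP2 at 156, to 244 in LYS1. The same letters stood before genes that fell, rose and did not pass. Among the 15 enzyme genes with the letters, 8 fell and 2 rose in the Flo- experiment, with a median log2 change of -0.34, and 10 fell and 2 rose in the Flo+ experiment, with a median of -0.44. Among the 26 enzyme genes without them, 13 fell and 9 rose in the Flo- experiment, with a median of -0.32, and 13 fell and 2 rose in the Flo+ experiment, with a median of -0.43. Of all genes tested, 28.4% fell and 25.0% rose in the Flo- experiment, and 20.5% fell and 23.0% rose in the Flo+ experiment. Members with large changes stood on both sides, with the letters before ASN1, HIS4, HIS1 and LYS1 and none in the windows of ARG1, GLN1, GDH1, HIS6, ARG3 and PRO1. The absence of the letters says nothing of variants of the site or of sites elsewhere.

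GCN4 (YEL009C, chrV:138918-139763) had the highest level per length of all members in every group. Its level was 76735, 75154 and 72445 normalised counts in the +Rap+Man samples, against 58506, 42968 and 51120 in the -Rap+Man samples. The Flo- groups did not overlap, and GCN4 rose by a log2 change of 0.57 (SE 0.16, adjusted p = 0.0152), which is 1.48-fold. With scaling to total counts this change was -0.02, so its direction holds only relative to the bulk of genes. Its adjusted p was 0.0506 without -Rap+Man replicate 2 and 0.0606 without +Rap+Man replicate 1. In the Flo+ experiment GCN4 was at 79410, 104121 and 93753 normalised counts in +Rap, against 66574, 81532 and 82904 in -Rap. Those groups overlapped and the log2 change of 0.26 did not pass (SE 0.15, adjusted p = 0.184), with -0.08 under total counts.

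Among 14 genes that act above or on Gcn4, 9 fell in each experiment and the cyclin gene PCL5 rose in both. Over all genes tested 28.4% fell in the Flo- and 20.5% in the Flo+ experiment. The median log2 change of the 14 was -0.46 in the Flo- and -0.49 in the Flo+ experiment. PCL5 encodes the cyclin that leads the kinase Pho85 to Gcn4 and so marks the Gcn4 protein for destruction, and it is itself a Gcn4 target. PCL5 had 9177, 7912 and 8377 normalised counts in +Rap+Man, against 2866, 1937 and 2898 in -Rap+Man. It had 13310, 14370 and 13335 in +Rap, against 5385, 5287 and 7264 in -Rap. The groups did not overlap in either experiment, and PCL5 rose by log2 changes of 1.75 in the Flo- (SE 0.17, adjusted p = 5.76e-05) and 1.21 in the Flo+ experiment (SE 0.14, adjusted p = 0.000421), and by 1.16 and 0.87 with total counts. The genes that fell in both experiments included GCN3 and GCD1, which encode subunits of the guanine nucleotide exchange factor of translation initiation. SUI2, which encodes the subunit that Gcn2 phosphorylates, fell by 0.74 in the Flo- and by 0.64 in the Flo+ experiment on the log2 scale. GCN2 itself fell by 0.32 in the Flo- experiment and had a log2 change of 0.02 in the Flo+ experiment (-0.32 with total counts).

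ASN1 (YPR145W, chrXVI:822620-824338), one of a pair of asparagine synthetase genes, had the most negative change of any member in the Flo+ experiment and the second most negative in the Flo- experiment. ASN1 had 9240, 11017 and 12416 normalised counts in +Rap+Man, against 31893, 27218 and 32594 in -Rap+Man. It had 5344, 4713 and 4987 in +Rap, against 23083, 18798 and 14563 in -Rap. Every depleted sample lay below every control sample of its experiment. ASN1 fell 2.82-fold in the Flo- experiment (log2 change -1.49, SE 0.15, adjusted p = 6.65e-05) and 3.69-fold in the Flo+ experiment (log2 change -1.88, SE 0.17, adjusted p = 9.02e-05). ASN2, the other synthetase gene, had a log2 change of -0.19 that did not pass in the Flo- experiment (adjusted p = 0.27) and fell by 0.61 in the Flo+ experiment (adjusted p = 0.00213). The difference of the responses did not pass for ASN1 (0.39, adjusted p = 0.29) or for ASN2 (0.41, adjusted p = 0.108).

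The genes that assimilate ammonia into glutamine and into glutamate moved in opposite directions. GLN1 (YPR035W, chrXVI:642208-643320) encodes glutamine synthetase, which adds ammonia to glutamate. It had 12895, 16027 and 14744 normalised counts in +Rap+Man, against 32023, 26953 and 40158 in -Rap+Man. It had 15240, 16737 and 13144 in +Rap, against 40720, 39804 and 33852 in -Rap. The groups did not overlap, and GLN1 fell 2.25-fold in the Flo- experiment (log2 change -1.17, SE 0.17, adjusted p = 0.00062) and 2.54-fold in the Flo+ experiment (log2 change -1.34, SE 0.13, adjusted p = 0.000156).

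GDH1 (YOR375C, chrXV:1041678-1043042) encodes the main NADP-dependent glutamate dehydrogenase, which makes glutamate from ammonia. GDH1 had 58284, 72340 and 60487 normalised counts in +Rap+Man, against 34885, 28356 and 26634 in -Rap+Man. It had 55250, 62832 and 52526 in +Rap, against 33470, 33276 and 36504 in -Rap. Again no depleted sample overlapped its controls. GDH1 rose 2.13-fold in the Flo- experiment (log2 change 1.09, SE 0.16, adjusted p = 0.000644) and 1.65-fold in the Flo+ experiment (log2 change 0.72, SE 0.12, adjusted p = 0.00201), and both calls held with total counts. Of the genes of these pathways outside the group, GLT1, the glutamate synthase gene, fell by 1.06 in the Flo- and by 0.58 in the Flo+ experiment.

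The arginine genes did not move as a block. ARG1 (YOL058W, chrXV:219211-220473), the argininosuccinate synthetase gene, had 646, 439 and 979 normalised counts in +Rap+Man, against 1792, 1462 and 3004 in -Rap+Man. It had 558, 594 and 560 in +Rap, against 1050, 1777 and 1768 in -Rap. The groups did not overlap although the controls spread widely, and ARG1 fell 3.04-fold in the Flo- (log2 change -1.61, SE 0.33, adjusted p = 0.00354) and 2.61-fold in the Flo+ experiment (log2 change -1.38, SE 0.20, adjusted p = 0.0013). ARG8, the acetylornithine aminotransferase gene, fell by 0.72 in the Flo- and by 0.39 in the Flo+ experiment. CPA1, the small subunit of the arginine-specific carbamoyl phosphate synthetase, rose by a log2 change of 0.51 in the Flo- experiment (adjusted p = 0.0405, and -0.08 with total counts) and had a log2 change of -0.35 that did not pass in the Flo+ experiment. The CPA1 rise was lost without any 1 of 5 of the 6 samples. ARG4, the argininosuccinate lyase gene, passed in neither experiment, with log2 changes of 0.27 (Flo-) and -0.46 (Flo+). In the fit blocked on replicate number, ARG4 was called in the Flo+ experiment (adjusted p = 0.0305).

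ARG3 (YJL088W, chrX:268799-269815), the ornithine carbamoyltransferase gene, had the largest difference between the responses of any member. It had 399, 357 and 334 normalised counts in +Rap+Man, against 895, 873 and 781 in -Rap+Man. It had 321, 259 and 299 in +Rap, against 241, 296 and 294 in -Rap. The -Rap+Man samples thus stood above all other samples, and the +Rap+Man samples above the samples without mannose. ARG3 fell 2.33-fold in the Flo- experiment (log2 change -1.22, SE 0.14, adjusted p = 0.000149), while its Flo+ change of 0.08 did not pass (SE 0.15, adjusted p = 0.683, and -0.26 with total counts).

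Histidine genes changed in both directions within one pathway, and all 6 passed in both experiments. HIS4 (YCL030C, chrIII:65934-68333), which encodes an enzyme of several steps, had 1656, 2090 and 1930 normalised counts in +Rap+Man, against 5257, 3450 and 6209 in -Rap+Man. It had 2208, 2304 and 2540 in +Rap, against 4111, 5252 and 6254 in -Rap. The groups did not overlap, and HIS4 fell 2.56-fold in the Flo- experiment (log2 change -1.36, SE 0.21, adjusted p = 0.000859) and 2.19-fold in the Flo+ experiment (log2 change -1.13, SE 0.16, adjusted p = 0.00113). HIS1 (YER055C, chrV:264892-265785) encodes the phosphoribosyltransferase of the first step. It had 5022, 6220 and 5838 in +Rap+Man, against 10649, 9854 and 11224 in -Rap+Man, and 5826, 4906 and 5118 in +Rap, against 11157, 9893 and 7813 in -Rap. HIS1 fell by 0.90 in the Flo- and by 0.85 in the Flo+ experiment with no overlap of groups. HIS2, the histidinol phosphatase gene, fell by 0.94 and 0.59, and HIS7, the imidazole glycerol phosphate synthase gene, by 0.34 and 0.53, in the Flo- and Flo+ experiments in that order.

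HIS6 (YIL020C, chrIX:314035-314820), the isomerase gene of the pathway, went the other way. HIS6 had 2520, 2292 and 2246 normalised counts in +Rap+Man, against 1018, 1348 and 1393 in -Rap+Man. It had 2599, 2056 and 2254 in +Rap, against 1090, 1060 and 758 in -Rap. The groups did not overlap, and HIS6 rose 1.89-fold in the Flo- experiment (log2 change 0.92, SE 0.15, adjusted p = 0.00103) and 2.39-fold in the Flo+ experiment (log2 change 1.26, SE 0.17, adjusted p = 0.000767). With total counts its Flo- change was 0.33 and no longer called. HIS5, the histidinol-phosphate aminotransferase gene, rose by 0.39 in the Flo- experiment (adjusted p = 0.0354, and -0.19 with total counts) and by 0.45 in the Flo+ experiment (adjusted p = 0.0146). The Flo- call of HIS5 was lost in 4 of the 6 fits that left out 1 sample (adjusted p up to 0.111), and the Flo+ call without +Rap replicate 2 (0.0591) or +Rap replicate 3 (0.0673). The Flo- call of HIS7 was likewise lost in 4 of the 6 fits (adjusted p up to 0.114).

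**Figure D2:**
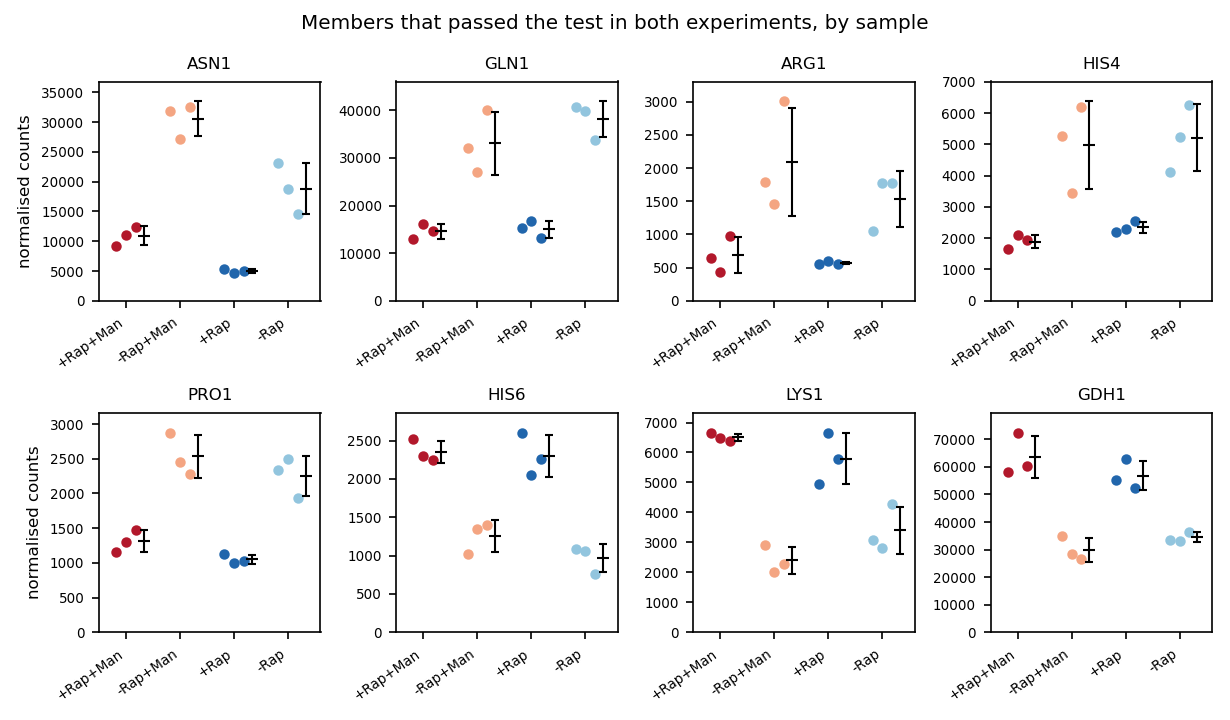
Normalised counts of 8 members that passed the test in both experiments, 1 point per sample, with the mean and SD of the 3 samples as black bars, in +Rap+Man, -Rap+Man, +Rap and -Rap. ASN1, GLN1, ARG1, HIS4 and PRO1 were lower in every depleted sample than in every control sample of the same experiment, and HIS6, LYS1 and GDH1 were higher. Of all genes, 2112 of 6325 were lower and 1801 higher without overlap in the Flo- experiment. In the Flo+ experiment 1696 of 6100 were lower and 1738 higher.

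Lysine genes split in the same way. LYS1 (YIR034C, chrIX:419615-420736) encodes the saccharopine dehydrogenase of the last step. It had 6642, 6486 and 6389 normalised counts in +Rap+Man, against 2909, 2020 and 2288 in -Rap+Man, and 4936, 6653 and 5788 in +Rap, against 3090, 2828 and 4289 in -Rap. The groups did not overlap, and LYS1 rose 2.73-fold in the Flo- experiment (log2 change 1.45, SE 0.15, adjusted p = 7.2e-05) and 1.72-fold in the Flo+ experiment (log2 change 0.78, SE 0.18, adjusted p = 0.0105). The Flo+ call was lost without +Rap replicate 2 (adjusted p = 0.0525) and with total counts (log2 change 0.44, adjusted p = 0.0517). LYS4, LYS9 and LYS12, which encode homoaconitase, saccharopine reductase and homoisocitrate dehydrogenase, fell in both experiments. Their log2 changes were -0.73, -0.74 and -0.55 in the Flo- experiment and -0.58, -0.83 and -0.59 in the Flo+ experiment. The call of LYS4 in the Flo+ experiment was lost in 5 of the 6 fits that left out 1 sample. LYS2, the aminoadipate reductase gene, did not pass in either experiment, with log2 changes of -0.15 and -0.03.

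LYS20 (YDL182W, chrIV:133437-134723), a homocitrate synthase gene of the first step, had 9839, 9206 and 10742 normalised counts in +Rap+Man, against 6527, 4239 and 4849 in -Rap+Man. It had 2555, 3050 and 2546 in +Rap, against 2573, 2611 and 1591 in -Rap. LYS20 rose 1.94-fold in the Flo- experiment without overlap (log2 change 0.95, SE 0.17, adjusted p = 0.00165), though with total counts its change of 0.37 was not called. In the Flo+ experiment the groups overlapped and the log2 change was 0.30 (SE 0.20, adjusted p = 0.259, and -0.04 with total counts). Its near copy LYS21 is identical to it at 95.0% of bases over 91.1% of its length, and how reads that match both were counted is not given in the sources used here, so the split between the 2 genes is uncertain.

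The lysine promoters were also searched for TCCNNNGGA, the core of the Lys14 element. This motif reads the same on both strands and shares no letters with the Gcn4 core at these positions. It was present in 204 of 6001 windows (3.40%) and in 3 of the 7 lysine genes, LYS1, LYS9 and LYS12. LYS9 held it at 2 places. They are shown because LYS1 rose while LYS9 and LYS12 fell in both experiments, with the motif in capitals.
LYS1 (rose in both), chrIX:420914-420942, minus strand: atttttttttTCCAGCGGAatttggaatt
LYS9 (fell in both), chrXIV:715533-715561, minus strand: attgagaattTCCAATGGAattatcagca
LYS9, second match, chrXIV:715595-715623, minus strand: gaatcgaaatTCCGTTGGAaaaattcgct
LYS12 (fell in both), chrIX:187796-187824, minus strand: ttcactttttTCCCGTGGAaaaatattct

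Of the 9 aromatic genes, TRP2 and TRP3 fell in both experiments, while TRP4 and TRP5 of the same tryptophan branch fell in neither. TRP3 and TRP2, whose products together form anthranilate synthase, fell by 0.72 and 0.46 in the Flo- experiment and by 0.78 and 0.42 in the Flo+ experiment. TRP4, the anthranilate phosphoribosyltransferase gene, rose by a log2 change of 0.56 in the Flo- experiment (SE 0.17, adjusted p = 0.0207, and -0.03 with total counts) and did not pass in the Flo+ experiment (-0.19, SE 0.15, adjusted p = 0.352). TRP5, the tryptophan synthase gene, rose by 0.61 in the Flo- experiment (SE 0.13, adjusted p = 0.00453, and 0.02 with total counts) and had a log2 change of 0.02 in the Flo+ experiment (-0.32 and called lower with total counts). TRP5 (YGL026C, chrVII:446412-448535) had 22023, 20539 and 21762 normalised counts in +Rap+Man, against 15489, 12293 and 14614 in -Rap+Man, and 12780, 14763 and 12236 in +Rap, against 11825, 13276 and 13968 in -Rap. The groups were separate with mannose and overlapped without it. In the shared pathway to chorismate, ARO3 fell by 0.43 in the Flo- experiment and had a log2 change of -0.33 in the Flo+ experiment that did not pass (adjusted p = 0.0594). ARO2, the chorismate synthase gene, fell by 0.56 and 0.55 in the Flo- and Flo+ experiments. ARO7, the chorismate mutase gene, fell by 0.71 and 0.82 in that order, but its call was lost in 4 of the 6 fits that left out 1 sample in the Flo- experiment (adjusted p up to 0.094) and in 2 of 6 in the Flo+ experiment (up to 0.0619). ARO1, which encodes an enzyme of several consecutive steps, passed in neither experiment (log2 changes -0.34 and -0.27). In the fit blocked on replicate number, ARO1 was called lower in the Flo- experiment (adjusted p = 0.0333).

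The threonine branch held 3 of the 5 members whose responses differed between the experiments in the fit without a block. They were HOM3, HOM6 and THR1, of which only HOM3 was called with total counts. Over all 6403 genes tested, this difference was called higher for 6.89% and lower for 6.92%. HOM3 (YER052C, chrV:256375-257958), the aspartate kinase gene of the first step, had 12687, 11948 and 11827 normalised counts in +Rap+Man, against 10110, 8573 and 10370 in -Rap+Man. It had 4015, 4292 and 3619 in +Rap, against 6779, 7251 and 5184 in -Rap. Depleted samples lay above their controls with mannose and below them without it. HOM3 rose by a log2 change of 0.33 in the Flo- experiment (SE 0.12, adjusted p = 0.047) and fell by 0.68 in the Flo+ experiment (SE 0.15, adjusted p = 0.00805). The Flo- rise was -0.26 with total counts and was lost in 5 of the 6 fits that left out 1 sample.

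HOM6 and THR1, the homoserine dehydrogenase and homoserine kinase genes, rose in the Flo- experiment only. HOM6 (YJR139C, chrX:689445-690524) had 30420, 37246 and 35800 normalised counts in +Rap+Man, against 17381, 22765 and 23375 in -Rap+Man, and 24954, 25793 and 23761 in +Rap, against 23410, 25355 and 30734 in -Rap. THR1 (YHR025W, chrVIII:159438-160511) had 25069, 25275 and 22686 in +Rap+Man, against 19662, 14094 and 17190 in -Rap+Man, and 15608, 18207 and 15319 in +Rap, against 19573, 19044 and 16184 in -Rap. For both genes the groups were separate with mannose and overlapped without it. The log2 change was 0.71 for HOM6 and 0.53 for THR1 in the Flo- experiment (adjusted p = 0.00562 and 0.0163, and 0.12 and -0.06 with total counts). In the Flo+ experiment it was -0.08 and -0.16, and neither passed. HOM2 and THR4, for the aspartic semialdehyde dehydrogenase and threonine synthase, fell by 0.41 and 0.51 in the Flo+ experiment and did not pass in the Flo- experiment (0.11 and -0.21).

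Both proline genes and 2 of the 3 serine genes fell in both experiments, and SER3 passed in neither. SER33 (YIL074C, chrIX:221081-222490), a phosphoglycerate dehydrogenase gene, had 2338, 2460 and 2488 normalised counts in +Rap+Man, against 4758, 4141 and 4389 in -Rap+Man. It had 1956, 1978 and 1658 in +Rap, against 3880, 2966 and 3241 in -Rap. The groups were separate, and SER33 fell by 0.86 in the Flo- and by 0.85 in the Flo+ experiment. SER1, the phosphoserine aminotransferase gene, fell by 0.64 and 0.72, and SER2, the phosphatase gene of the pathway and no member of the group, by 1.03 and 1.24. PRO1 (YDR300C, chrIV:1061505-1062791), the glutamyl kinase gene, had 1158, 1298 and 1479 normalised counts in +Rap+Man, against 2872, 2449 and 2282 in -Rap+Man, and 1123, 998 and 1031 in +Rap, against 2338, 2494 and 1935 in -Rap. PRO1 fell 1.93-fold in the Flo- experiment (log2 change -0.95, SE 0.14, adjusted p = 0.000724) and 2.14-fold in the Flo+ experiment (log2 change -1.09, SE 0.13, adjusted p = 0.00036). PRO2, the next enzyme gene, fell by 0.48 and 0.44.

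The difference between the responses was tested for every member as the Flo- change minus the Flo+ change. Of 42 members, 4 were higher and 1 was lower, beside 6.89% and 6.92% of all 6403 genes tested. The higher ones were HOM3 (1.01, SE 0.19, adjusted p = 0.0056), HOM6 (0.80, SE 0.21, adjusted p = 0.0246), THR1 (0.69, SE 0.20, adjusted p = 0.0357) and TRP5 (0.58, SE 0.17, adjusted p = 0.0424), and the lower one was ARG3 (-1.30, SE 0.20, adjusted p = 0.00117). ARG3 and HOM3 were also the only members past the stricter thresholds, beside 1.16% of all genes lower and 2.61% higher. Both kept their call in all 12 fits that left out 1 sample and with total counts. HOM6 lost it in 4 of the 12 fits, and THR1 and TRP5 in 9 of 12 each, and none of these 3 was called with total counts. Blocked on replicate number, 7 members were higher, the additional ones being ARG4 (0.74, adjusted p = 0.0409), CPA1 (0.86, adjusted p = 0.0241) and TRP4 (0.74, adjusted p = 0.0269). GCN4 did not pass (0.31, SE 0.22, adjusted p = 0.375). Across all 42 members the differences ran from -1.30 to 1.01 with a median of 0.08, beside -0.01 over all genes.

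**Figure D3:**
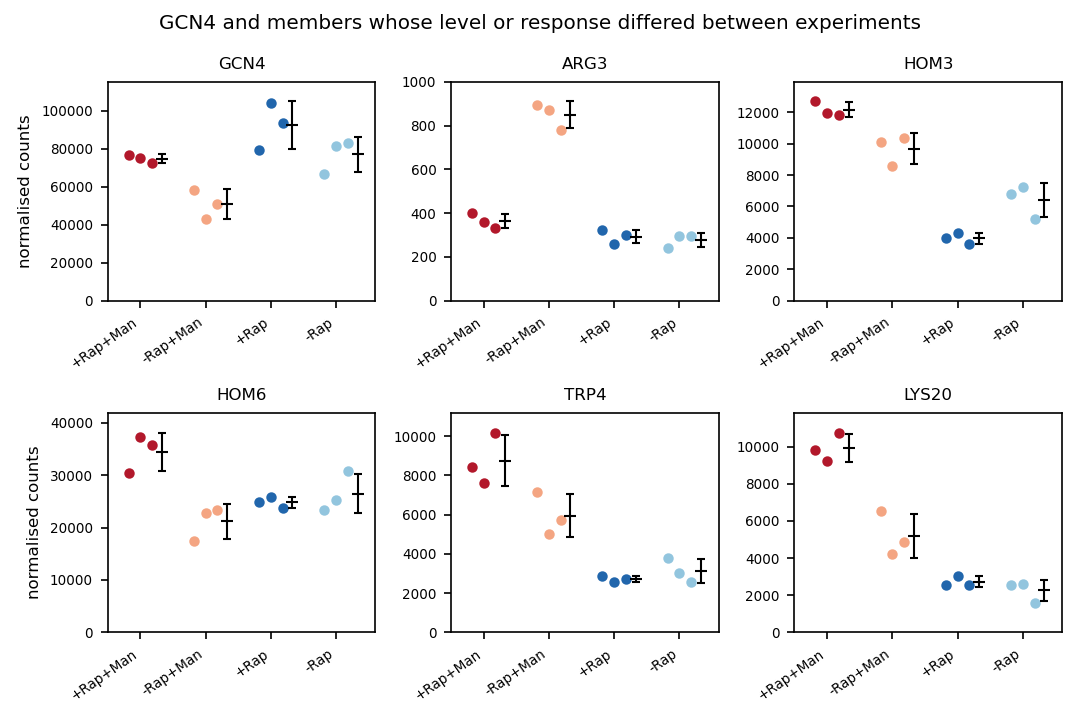
Normalised counts of GCN4 and 5 members whose level or response differed between the experiments, 1 point per sample, with the mean and SD of 3 samples as black bars. ARG3 stands apart in -Rap+Man, HOM3 moves in opposite directions in the 2 experiments, and LYS20 and TRP4 are higher in all samples with mannose than in any without. With total counts the Flo- change of GCN4, HOM3 and TRP4 turns negative.

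Levels also differed between the controls of the experiments, where mannose, sequencing time and read type cannot be told apart. Comparing -Rap+Man with -Rap, 9 members were higher and 3 lower, beside 25.7% and 24.8% of all 6403 genes tested. ARG3 was 3.06-fold higher (log2 difference 1.61, SE 0.14, adjusted p = 7.99e-07), with the sample values given above. LYS20 was 2.32-fold higher (1.22, SE 0.20, adjusted p = 0.000235) and TRP4, with 7156, 5006 and 5708 in -Rap+Man, against 3805, 3039 and 2566 in -Rap, 1.90-fold higher (0.93, SE 0.17, adjusted p = 0.000548). LYS21 (YDL131W, chrIV:227393-228715) had 5368, 4241 and 4586 in -Rap+Man, against 2996, 2476 and 2667 in -Rap, a log2 difference of 0.80. ASN1 and HOM3 were higher by log2 differences of 0.72 and 0.61, and these groups did not overlap either. Of all 6403 genes, 1723 were higher and 1695 lower in -Rap+Man without overlap.

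GCN4 and LYS1 were lower in the mannose controls. The log2 difference of GCN4 was -0.60 (SE 0.15, adjusted p = 0.00595), with no overlap, and that of LYS1 was -0.49 (SE 0.17, adjusted p = 0.0317), with 1 overlapping pair of samples. The LYS1 call was lost without -Rap replicate 3 (adjusted p = 0.126), -Rap+Man replicate 2 (0.13) or -Rap+Man replicate 3 (0.0801). By the stricter thresholds only ARG3 and LYS20 were higher, beside 11.0% of all genes, and no member was lower, beside 10.6%. HIS3, a histidine gene outside the group whose name also marks the CYC8-FRB allele, had 578, 406 and 609 normalised counts in -Rap+Man, against 3812, 4427 and 3994 in -Rap. HIS3 had 630, 620 and 686 in +Rap+Man, against 3940, 3840 and 3789 in +Rap, and did not pass in either response. The cause of this HIS3 difference between the experiments, present with and without rapamycin, was not tested. Of the other genes outside the group, PUT1, a proline oxidase gene, CAR2 and GDH3 were lower in -Rap+Man than in -Rap, by log2 differences of -2.39, -1.66 and -1.35, and TRP1 was higher by 1.26.

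Isozyme pairs were set side by side per kilobase of coding length. ASN1 and ASN2 were at 6335 ± 926 and 11782 ± 412 counts per kb in +Rap+Man, against 17783 ± 1700 and 13543 ± 1890 in -Rap+Man (SD, n = 3 each). Without mannose they were at 2917 ± 184 and 9010 ± 149 in +Rap, against 10945 ± 2478 and 13724 ± 551 in -Rap. The ratio of ASN1 to ASN2 was thus 0.45 to 0.60 in +Rap+Man, against 1.19 to 1.44 in -Rap+Man, and 0.30 to 0.35 in +Rap, against 0.60 to 1.02 in -Rap. A ratio of 2 genes does not depend on the scaling of the sample.

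LYS20 exceeded LYS21 most in the depleted cells with mannose, at a ratio of 2.22 to 2.54 in +Rap+Man, against 1.03 to 1.25 in -Rap+Man, and 1.05 to 1.23 in +Rap, against 0.61 to 1.08 in -Rap. SER3 to SER33 was at 1.51 to 2.43 in +Rap+Man, against 0.95 to 1.66 in -Rap+Man, and 2.29 to 2.48 in +Rap, against 0.71 to 2.04 in -Rap, where the spread came from SER3. SER3 overlaps the non-coding gene YNCE0017W on the same strand, so reads of the 2 may not be separable. ARO3 to ARO4, the feedback-regulated synthases of the first aromatic step, was at 0.29 to 0.34 in +Rap+Man, against 0.43 to 0.47 in -Rap+Man, with no clear gap in +Rap (0.37 to 0.47), against -Rap (0.36 to 0.55).

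The glutamate dehydrogenase pair also changed in ratio. GDH3, the isozyme gene outside the group, had 2325, 2291 and 2517 normalised counts in +Rap+Man, against 368, 338 and 376 in -Rap+Man, and 2046, 2551 and 2473 in +Rap, against 827, 941 and 1007 in -Rap. The groups were well apart, and GDH3 rose 6.56-fold in the Flo- experiment (log2 change 2.71, SE 0.12, adjusted p = 3.14e-07) and 2.54-fold in the Flo+ experiment (1.35, SE 0.13, adjusted p = 0.000135). With total counts it still rose, by 2.13 and 1.00. The difference of its responses passed as well (1.37, adjusted p = 0.000344). GDH1 remained the more abundant one in all 12 samples, at 24.2 to 31.8 times GDH3 in +Rap+Man, against 71.2 to 95.3 in -Rap+Man, and at 21.4 to 27.2 in +Rap, against 35.6 to 40.7 in -Rap.

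**Figure D4:**
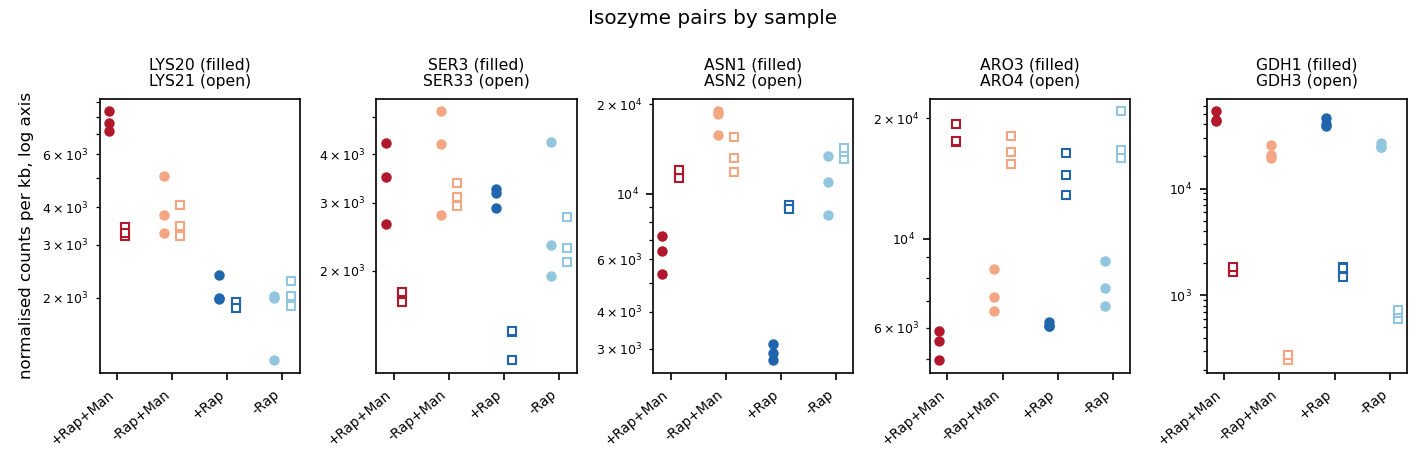
Normalised counts per kilobase of both genes of 5 isozyme pairs on a log axis, 1 point per sample, with the first gene filled and the second open. ASN1 lies below ASN2 in the depleted samples of both experiments, and GDH3 approaches GDH1 in them. In the -Rap controls the ratio of ASN1 to ASN2 already ran from 0.60 to 1.02, with a median of 0.79.

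Normalised counts were also summed by pathway. The asparagine pair summed to 31143 ± 1645 normalised counts in +Rap+Man, against 53848 ± 5681 in -Rap+Man, and to 20504 ± 217 in +Rap, against 42406 ± 3323 in -Rap (SD, n = 3 each). The histidine genes summed to 17078 ± 1096 in +Rap+Man, against 24654 ± 2259 in -Rap+Man, and to 17234 ± 772 in +Rap, against 23481 ± 633 in -Rap. The 5 threonine and homoserine genes summed to 101854 ± 5121 in +Rap+Man, against 79608 ± 4289 in -Rap+Man, but to 73380 ± 4121 in +Rap, against 89815 ± 2582 in -Rap. As a share of all counted reads these 5 genes took 0.198% to 0.222% in +Rap+Man, against 0.233% to 0.252% in -Rap+Man, so that the direction in the Flo- experiment turned with the scaling. All 41 enzyme genes together had a ratio of means of 1.01 in the Flo- and 0.80 in the Flo+ experiment. As a share of all counted reads they took 0.748% to 0.855% in +Rap+Man, against 1.13% to 1.20% in -Rap+Man, and 0.758% to 0.795% in +Rap, against 1.21% to 1.25% in -Rap. The enzymes' share of the counted reads was therefore lower in depleted cells of both experiments. A lower share was common to most genes, since with total counts the median log2 change of all genes was -0.65 (Flo-) and -0.36 (Flo+).

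The remaining genes of these pathways were read in the same way. Of 16 further enzyme genes, 5 fell and 2 rose in the Flo- experiment and 4 fell and 1 rose in the Flo+ experiment. The median log2 changes were -0.13 and -0.19. The falls lay near the shares of all genes that fell (28.4% and 20.5%), while 25.0% and 23.0% of all genes rose. Of 7 pathway regulator genes, such as ARG80, ARG81 and LYS14, 5 fell and ARG80 rose in the Flo- experiment (0.43, but -0.15 with total counts) and none passed in the Flo+ experiment, where LYS14 had a log2 change of -0.14. Of 6 genes that break down arginine, proline and serine, 2 fell and 1 rose in each experiment, beside the same shares of all genes. CAR2, the ornithine aminotransferase gene of arginine breakdown, had 1565, 1544 and 1104 normalised counts in +Rap+Man, against 296, 216 and 127 in -Rap+Man, and 1763, 2298 and 2029 in +Rap, against 955, 463 and 599 in -Rap. CAR2 rose 6.83-fold in the Flo- experiment (log2 change 2.77, SE 0.29, adjusted p = 9.25e-05) and 3.13-fold in the Flo+ experiment (1.65, SE 0.25, adjusted p = 0.00145), and by log2 changes of 2.19 and 1.31 with total counts. CAR1, the arginase gene of the step before, fell by 0.55 in the Flo+ experiment (adjusted p = 0.0481) and had a log2 change of -0.38 in the Flo- experiment that did not pass. CHA1, a serine and threonine deaminase gene, fell by 1.46 in the Flo- and by 1.21 in the Flo+ experiment.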

How the data were processed

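Total RNA depleted of rRNA was sequenced strand-specifically from 12 samples in 4 groups of 3. The authors trimmed reads with fastp 0.20.0, aligned them with STAR 2.7.3 to the S288c reference and deposited raw read counts per gene. The counting tool, strand setting, annotation release and handling of reads that match several genes are not given in the sources used here. A second deposited table holds counts divided by DESeq2 size factors and the authors' log2 fold changes and adjusted p-values. It was used for gene names and to read back the authors' size factors, which entered no fit. The comparison columns were left out. The deposited counts carry digit separators, which were removed on reading and left whole numbers. They were analysed on the log2 scale with limma 3.58.1 (R 4.3.3) and no count model was run.

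Genes were kept with the equivalent of 10 counts in at least 3 samples and 15 counts in total. Counts were scaled by TMM factors (30% of log ratios and 5% of levels trimmed) to a common total of 37220945, 2 was added, and lmFit and eBayes with a trend were applied, with Benjamini-Hochberg adjustment over all genes tested. The response in an experiment was fitted on that experiment's 6 samples, and differences between experiments on all 12. The tests were tried on simulated data.

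By the study's methods each culture was divided into a depleted and a control part, although the replicate numbers are not stated to mark the parts. Deviations of same-numbered samples correlated at 0.201 to 0.469 in the Flo- and 0.122 to 0.245 in the Flo+ experiment, above 0.1 in every pair. Samples numbered 2 and 3 in the Flo- experiment also lay above it across numbers, at 0.125 and 0.145. The numbers were taken to pair the samples, and a fit blocked on them was run as an alternative. Standard errors and adjusted p-values are from the fit without the block unless stated. Replicates differed by more than counting error (chi-square per gene of 33.0 to 341). Members and gene lists were chosen with earlier results of these data known. GCN4, the 8 members with the largest change among those past an adjusted p of 0.05 in each comparison, 5 isozyme pairs, and up to 5 genes of other lists past stricter thresholds (adjusted p of at most 0.01 and a change of 1 or more on the log2 scale) were named with their values. Regulators named beside them (GCN2, GCN3, GCD1, SUI2, ARG80, ARG81 and LYS14), CAR1, SER2 in the Flo- and GLT1 and CHA1 in the Flo+ experiment were chosen after their values were seen. Sequences and coordinates are from RefSeq R64.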

Additional observations from a re-analysis of the deposited data

Results flagged for a closer look

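For 5 members the response to Cyc8p depletion differed between the experiments by the test of the difference itself (limma, Flo- minus Flo+ log2 change, adjusted by Benjamini-Hochberg over all 6403 genes). Of the 42 members 4 were higher and 1 was lower, beside 6.89% and 6.92% of all genes tested. ARG3 had a difference of -1.30, HOM3 of 1.01, HOM6 of 0.80, THR1 of 0.69 and TRP5 of 0.58. HOM3, HOM6 and THR1 encode enzymes of the path from aspartate to threonine. The ARG3 and HOM3 controls also differed between experiments, by log2 differences of 1.61 and 0.61, and the part of those control levels in the result was not tested.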

How the results depend on the processing

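Scaling by RLE size factors, no filter, at least 10 counts in every sample, added counts of 0.5 or 8, voom weights and a fit of all 12 samples left every count of members called within 1.5 times its value. Single calls were lost for HIS7 (RLE), HOM3 (voom weights, 12 samples) and CPA1 (12 samples) in the Flo- experiment and for HIS7 (RLE, 10 counts in every sample) in the controls. Calls were gained for TRP4 in the difference of responses (RLE) and for ARO7 in the controls (added count of 8, voom weights). Scaling to total counts, chosen after seeing the data, moved more. In the Flo+ experiment 2 members were then higher, and by the stricter thresholds 0 higher and 12 lower. In the Flo- experiment 2 were higher, and by those thresholds 0 higher and 20 lower. For the difference of responses 1 was higher and 3 lower, with 0 higher by those thresholds, and for the controls 6 were lower. Signs turned in the Flo+ experiment for GCN4 (-0.08), ARG3 (-0.26), LYS20 (-0.04), TRP5 (-0.32) and SER3 (-0.13). In the Flo- experiment they turned for GCN4 (-0.02), ARG4 (-0.32), CPA1 (-0.08), HIS5 (-0.19), TRP4 (-0.03), ARO4 (-0.46), HOM2 (-0.48), HOM3 (-0.26) and THR1 (-0.06). The cause was not tested.

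Blocked on replicate number, 7 members were higher in the difference of responses, against 4 without it, and ARG4 (Flo+) and ARO1 (Flo-) gained a call. It changed no other call of a member in these 3 comparisons. Leaving out 1 sample at a time, members higher ran from 2 to 5 in the Flo+ and 6 to 10 in the Flo- experiment, and members lower from 18 to 25 and 17 to 21. The lowest counts of higher members came without +Rap replicate 2 and without -Rap+Man replicate 2. In the difference of responses 1 to 7 were higher, with 1 without +Rap replicate 1 or 3 or +Rap+Man replicate 2 or 3, 2 without -Rap or -Rap+Man replicate 2, and 7 without -Rap+Man replicate 1, and 0 to 1 were higher by the stricter thresholds. In the controls 1 to 3 were lower, with 1 without -Rap replicate 3 or -Rap+Man replicate 2, and 1 to 3 were higher by those thresholds. Among members that did not pass in the Flo+ experiment, signs turned for ARG3 (-0.02 to 0.17), TRP5 (-0.06 to 0.08), SER3 (-0.03 to 0.55), LYS2 (-0.10 to 0.04) and HOM6 (-0.17 to 0.03). The smallest change called with 3 samples a group was 0.33 (HOM3) in the Flo- and -0.39 (ARG8) in the Flo+ experiment.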
